A study of Mus musculus with 4 samples.

Results

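Epithelial cells of dorsal skin induced to express PITX1 were set beside epithelial cells of the buccal mucosa, the lining of the cheek, in tissue sections read by Xenium, which counts single transcripts in place with probes against a panel of 328 genes. An epithelial cell was defined as a cell with at least 10 transcripts, of which at least 3 came from the sum of *Krt5*, *Col17a1*, *Dsg3* and *Dsg1a*. By this rule 57554 cells lay in 4 sections of PITX1+ skin and 20230 cells in 6 sections of buccal mucosa, together 77784 of the 515791 cells on the study's 4 slides. Control skin, used as background, gave 8910 such cells in 3 sections. PITX1+ skin came from Tet-On mice carrying TRE-Pitx1 and Krt5-rtTA on doxycycline, in which the *Krt5* promoter drives the activator, so that the transgene is induced in cells that express *Krt5*. Control skin carries the genotype label Control and the treatment label Vehicle, and per the study's methods came from littermates on normal chow. The buccal mucosa, from male and female mice, is labelled Control and Vehicle as well, so that tissue, genotype and treatment all differ from those of PITX1+ skin. Ages of the animals are not given in the sources used here. The slide with wounds was not used.

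The labels give each slide both conditions and no condition for a section. Sections were therefore told apart by position, and those taken as PITX1+ skin are numbers 2 and 3 along the male slide (here PITX1+ 1 and 2) and numbers 3 and 4 along the female slide (PITX1+ 3 and 4). The remaining 3 are Control 1 (male) and Control 2 and 3 (female). Of 7 buccal sections, Buccal 3 held 1 epithelial cell and was not used. All buccal sections lay on 1 slide, so tissue and slide cannot be told apart. No label names an animal, while the study counts its Xenium samples as 3 of control skin, 4 PITX1+ mice and 7 buccal mucosae, the numbers of sections found here, so the p-values below measure the spread between these sections. Epithelial cells numbered 11045 to 18113 in a PITX1+ section, 1176 to 4623 in a buccal section and 2133 to 3816 in a Control section. Their summed transcripts ranged from 1336018 to 2177432, from 192796 to 1274324 and from 97611 to 279598, so counting error was widest in Control skin.

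Keratinocytes of stratified epithelia divide in the basal layer and differentiate as they move outward, exchanging one set of keratins and envelope proteins for another. Back skin forms a cornified epidermis with hair follicles and sebaceous glands, whereas the mouse buccal epithelium is thick, lacks follicles and makes its own keratins, among them *Krt4*. PITX1 is a paired-like homeodomain transcription factor expressed in oral epithelium and in the developing hindlimb.

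The cells were chosen by the counts of the 4 marker genes, whose levels are given as a description only. *Krt5*, a keratin of basal cells, stood at 37668 to 66769 CPM (counts scaled to a common total of panel transcripts of the epithelial cells) in PITX1+ sections and 24309 to 38555 CPM in buccal sections. *Dsg1a*, a desmosomal cadherin of upper layers, stood at 4812 to 12834 CPM in PITX1+ sections and at 16263 to 21484 CPM in buccal sections. *Col17a1* (4815 to 9115 and 5253 to 9399 CPM) and *Dsg3* (9593 to 13485 and 10207 to 18725 CPM) overlapped between these groups. In Control sections *Col17a1* stood at 30171 to 38563 CPM, so the rule drew on another balance of marker genes there, a limit on comparisons with Control skin. Cells just inside the rule, with 3 marker transcripts, numbered 2076, 891, 2664 and 4238 in the PITX1+ sections and 120 to 205 in a buccal section. Cells just outside it, with 2, numbered 2381, 1067, 3672 and 5694 in the PITX1+ sections and 196 to 330 in a buccal section.

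*Pitx1* itself, the induced gene, was read first. Levels from here on are CPM summed over the epithelial cells of a section and scaled by TMM over all 13 sections used. *Pitx1* stood at 827 and 611 scaled CPM in PITX1+ 1 and 2, at 22.3 and 61.1 in PITX1+ 3 and 4, and at 17.6, 32.8 and 29.7 in the Control sections. Only the male pair of PITX1+ sections stood well above Control skin. PITX1+ 3, which held 42 *Pitx1* transcripts, lay below both Control sections of its own slide, so there the measurement goes against its place among the PITX1+ sections, while its *Slpi*, *Dsc2* and *Shh* levels, given below, lay above both of those Control sections. These genes were called higher with this section included, so that is no independent check of its place. Which part of the transgene's transcript the probes read is not given in the sources used here. In buccal epithelium the level was 1132 at the lowest, 1259.6 at the median and 1819.8 at the highest, above every PITX1+ section under TMM. In plain CPM, PITX1+ 1 and 2 stood at 1153.5 and 891, inside the buccal range of 756 to 1364. The log2 fold change of PITX1+ over buccal epithelium was -1.82 (SE 0.79), with an adjusted p of 0.0676 in edgeR's quasi-likelihood test (Benjamini-Hochberg over all genes tested, as for every adjusted p of a fold change below), and it was -2.54 without PITX1+ 1, with an adjusted p of 0.0268. With the male PITX1+ sections alone it was -0.67 (adjusted p = 0.0421), and with the female ones alone -5.04 (adjusted p = 8.45e-06).

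**Figure D1:**
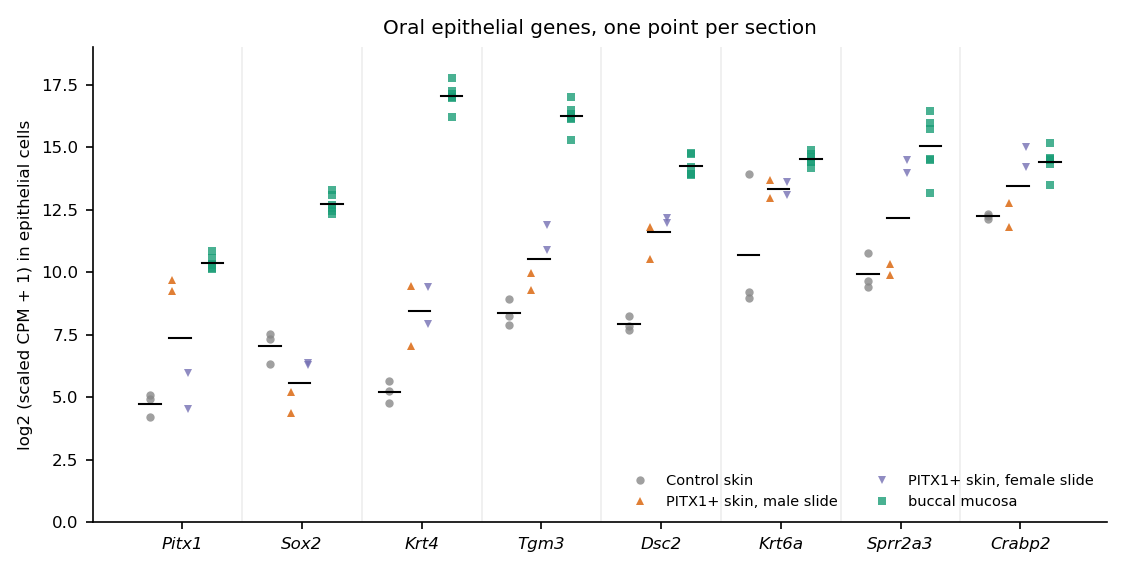
Levels of 8 oral epithelial genes in epithelial cells, as log2 of TMM-scaled CPM plus 1, with a point for each of 3 sections of Control skin, 4 of PITX1+ skin (the male and female slides have their own symbols) and 6 of buccal mucosa, and a bar for the mean of these log2 values in a group. *Krt4*, *Tgm3*, *Sox2* and *Dsc2* sit far lower in every PITX1+ section than in any buccal section, whereas *Crabp2* and *Sprr2a3* of the female PITX1+ sections reach the buccal range.

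PITX1+ and buccal epithelium differed in most genes of the panel, and of 8 oral epithelial genes listed here none was higher in PITX1+ skin. Of 320 genes tested, 176 passed an adjusted p of 0.05, which is 55% of them, 106 (33.1%) higher and 70 (21.9%) lower in PITX1+ skin. The sections of the groups did not overlap for 129 genes (40.3%). Of the 8 oral genes, 5 were lower (*Krt4*, *Tgm3*, *Sox2*, *Dsc2* and *Krt6a*) and 3 did not pass (*Pitx1*, *Crabp2* and *Sprr2a3*), with a median log2 fold change of -2.29 against 0.29 over all genes tested. The study chose these genes with these tissues in view, so their direction is not independent evidence. Every count of members of a list called against buccal mucosa below is to be read against these 33.1% and 21.9%. Scaling to library size in place of TMM moved the median of all genes from 0.29 to 1.26 and the calls to 168 higher and 35 lower. Scaling to the number of cells gave a median of 0.23, with 100 genes higher and 70 lower. Under library size *Krt6a* was no longer called (log2 fold change -0.19, adjusted p = 0.588) and *Crabp2* turned to 0.50. In these sums, fewer cells that express a gene and less RNA of it per cell cannot be told apart.

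*Krt4*, the keratin of the upper layers of mucosal epithelia, was counted at 694, 132, 246 and 678 scaled CPM in PITX1+ 1 to 4. In the buccal sections it ran from 75362 through a median of 135390.0 to 222661. Control skin stood lower still, at 26.5, 36.9 and 49.5. The PITX1+ mean was 0.307% of the buccal mean, a log2 fold change of -8.33 (SE 0.73, adjusted p = 2.23e-06). Every PITX1+ section therefore lay between Control skin and buccal mucosa, near the Control end. Over Control skin, in a comparison that shares the PITX1+ sections, *Krt4* was higher by 3.43 on the log2 scale (SE 0.71, adjusted p = 0.0155), a call that was lost without the cells that hold follicle genes described below (4.13, adjusted p = 0.0591).

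*Tgm3*, an epidermal-type transglutaminase that cross-links envelope proteins, followed the same order. It stood at 1008, 622, 1918 and 3801 scaled CPM in PITX1+ 1 to 4, at 40394, 78390.5 and 131458 at the lowest, median and highest of the buccal sections, and at 299.8, 238 and 492 in Control skin. The PITX1+ mean was 2.24% of the buccal mean (log2 fold change -5.45, SE 0.64, adjusted p = 2.19e-05). *Dsc2*, a desmosomal cadherin, was nearer to the buccal level, with 3600.1, 1490.3, 4018 and 4538 in PITX1+ sections against a buccal range of 15213 to 27755 and a median of 17245, while Control skin held 299.8, 228 and 205. Its PITX1+ mean was 17% of the buccal mean (log2 fold change -2.53, SE 0.38, adjusted p = 0.000141). Over Control skin *Tgm3* was higher by 2.30 (adjusted p = 0.0143) and *Dsc2* by 3.73 (adjusted p = 0.00146) on the log2 scale. Without the cells that hold follicle genes *Tgm3* lost that call (2.51, adjusted p = 0.0939), and *Dsc2* kept it (3.74, adjusted p = 0.028).

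*Sox2*, a transcription factor of oral epithelium and of several progenitor cells, did not move towards the buccal level. It was read at 20, 36.4, 78.2 and 82.1 scaled CPM in PITX1+ 1 to 4 and at 79.4, 158 and 181 in Control 1 to 3. Buccal sections held 5143 at the lowest, 6320.2 at the median and 10019 at the highest. PITX1+ epithelium was lower than buccal epithelium by a log2 fold change of -6.99 (SE 0.53, adjusted p = 9.86e-07). Against Control skin the value was -1.29 (SE 0.37, adjusted p = 0.0351), and -0.37 (adjusted p = 0.587) when scaled to the number of cells. In Control as in PITX1+ skin the share of epithelial cells with a *Sox2* transcript was near that of cells with no marker transcript, as given below, so no change between them is read from these counts.

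*Krt6a*, a keratin that oral epithelium makes steadily and epidermis makes when activated, stood at 13153, 7948, 8610.3 and 12376 scaled CPM in PITX1+ 1 to 4 against 18210.5 to 29833 (median 23259) in buccal mucosa. Control 1 held 15695, above all 4 PITX1+ sections, and Control 2 and 3 held 498 and 591. The PITX1+ mean was 44.2% of the buccal mean (log2 fold change -1.16, SE 0.27, adjusted p = 0.00349), and the call was lost under library size and in the cells without follicle genes described below (-1.04). *Krt17*, which marks hair follicles and activated epidermis, was higher in PITX1+ skin (log2 fold change 1.17, adjusted p = 0.0101), although PITX1+ 2, at 39122, lay within the buccal range of 26952 to 40056 and the call was lost in the cells without follicle genes (0.90, adjusted p = 0.0773). Of the 3 stress keratins, 1 was higher, 1 lower and 1 did not pass, which is near the shares over all genes tested (33.1% and 21.9%).

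*Crabp2* and *Sprr2a3* differed between the slides. *Crabp2*, a retinoic acid carrier, stood at 6937 and 3627 scaled CPM in the male PITX1+ sections, 32746 and 19066 in the female ones, and 11396 to 36298 (median 23341) in buccal mucosa. *Sprr2a3*, a small proline-rich envelope protein, was at 934 and 1288 in the male sections, 16033 and 22639 in the female ones, and 9163 to 88146 (median 38519.8) in buccal mucosa. Both female sections thus lay inside the buccal range for both genes, and both male sections below it. Neither passed over all 4 sections (log2 fold changes -0.55, SE 0.54, adjusted p = 0.412, and -2.06, SE 0.93, adjusted p = 0.0778). With the male sections alone *Crabp2* had -1.87 and *Sprr2a3* -4.97 (adjusted p = 0.00187 and 0.00107), and with the female ones alone 0.18 and -1.12 (adjusted p = 0.648 and 0.16). *Pitx1* had the opposite order between the slides.

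**Figure D2:**
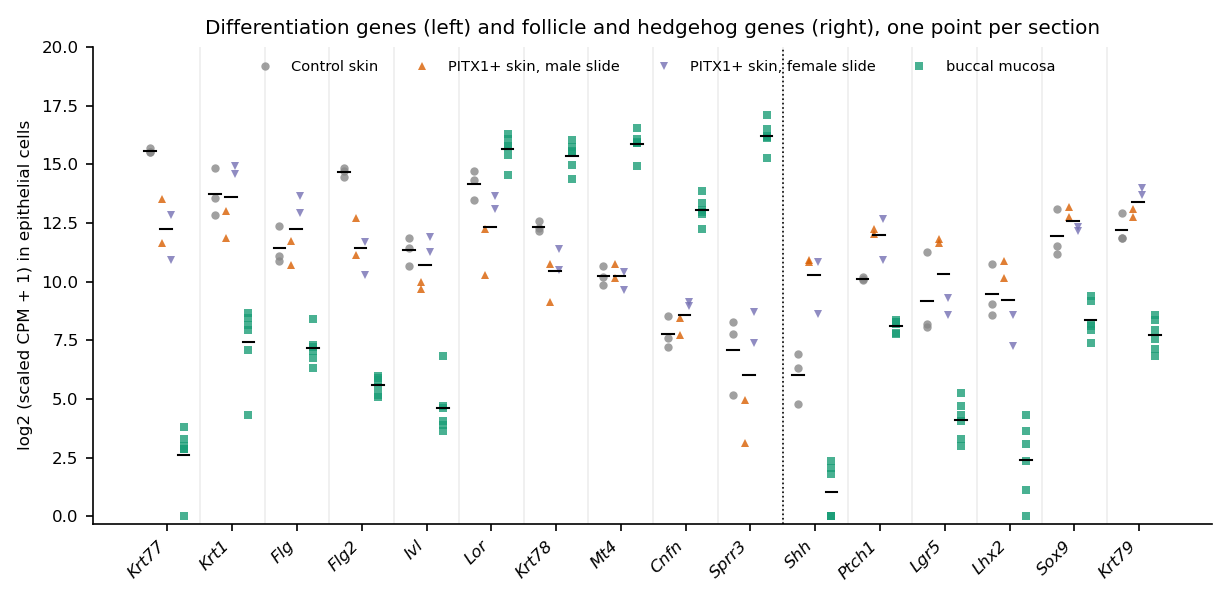
Levels of differentiation genes (left) and of follicle and hedgehog genes (right) in epithelial cells, as log2 of TMM-scaled CPM plus 1, with a point for each section and a bar for the mean of these log2 values in a group. All follicle and hedgehog genes shown, and *Krt77*, *Krt1*, *Flg*, *Flg2* and *Ivl*, are lowest in the 6 buccal sections, and *Krt78*, *Mt4*, *Cnfn* and *Sprr3* are highest there.

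Other genes were likewise far higher in buccal epithelium. *Sprr3*, an envelope precursor of internal stratified epithelia, stood at 29.7, 7.7, 169 and 414 scaled CPM in PITX1+ 1 to 4 and at 39058, 73712 and 140298 at the lowest, median and highest of the buccal sections. The PITX1+ mean was 0.19% of the buccal mean (log2 fold change -9.01, SE 1.21, adjusted p = 5.66e-05). Control skin held 35.3, 312 and 218, so PITX1+ sections lay in and around its range. *Mt4*, a metallothionein of stratified squamous epithelia, read 1137, 1746, 1382 and 792 in PITX1+ sections against 31532 to 94550.4 (median 62982) in buccal mucosa, and 1640.0, 939 and 1188 in Control skin. Its log2 fold change was -5.64 (SE 0.45, adjusted p = 1.16e-06), against -0.11 (adjusted p = 0.798) over Control skin. Further genes of this order were *Chil3*, a chitinase-like protein (-8.32), *Mt3*, another metallothionein (-5.10), *Il1f6* and *Il1f8*, epithelial cytokines of the IL-36 group (-4.77 and -4.64, but -0.54 and 0.54, with adjusted p = 0.439 and 0.311, when only cells with at least 10% marker transcripts were kept), and *Krt78*, a keratin of upper layers (-4.78). In each of them the 4 PITX1+ sections lay below all 6 buccal sections, where 40.3% of all genes tested did not overlap in either direction. For *Chil3*, *Mt3* and *Krt78* the rule for naming genes required this.

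Among the small proline-rich proteins, 3 of 5 were lower in PITX1+ epithelium and none higher, with a median of -2.77, where 21.9% of all genes tested were lower and 33.1% higher. *Sprr1a* stood at 5888, 1623, 7663 and 5139.8 scaled CPM in PITX1+ 1 to 4, at 17258 to 64979 (median 30334) in buccal mucosa and at 679, 792 and 429 in Control skin. It was lower than in buccal mucosa by -2.77 (SE 0.52, adjusted p = 0.000761), with 0.01 (adjusted p = 0.983) when only cells with at least 10% marker transcripts were kept. It was higher than in Control skin by 2.92 (SE 0.51, adjusted p = 0.0109). *Sprr1b* had -3.85 and 4.28 in the same comparisons (adjusted p = 0.00274 and 0.0186). All 4 PITX1+ sections lay between Control skin and buccal mucosa for *Sprr1a*, whereas for *Sprr1b* PITX1+ 2, at 78.5, lay within the Control range of 44.1 to 88.2. Without the cells that hold follicle genes the calls over Control skin were lost for both (*Sprr1a* 2.62, adjusted p = 0.0503, and *Sprr1b* 4.83, adjusted p = 0.0939), and so was the call for *Sprr1b* against buccal mucosa (-2.76).

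*Slpi*, a secreted inhibitor of neutrophil elastase that saliva and mucosae carry, showed the same order with the largest distance from Control skin of the genes named here. It read 5156, 1358, 7472 and 7679.5 scaled CPM in PITX1+ 1 to 4, against 35.3, 103 and 119 in Control skin and 29233 to 110705 (median 69463) in buccal mucosa. The log2 fold change was 6.09 over Control skin (SE 0.53, adjusted p = 0.00146) and -3.67 over buccal mucosa (SE 0.57, adjusted p = 0.00019), where it was 0.20 (adjusted p = 0.668) when only cells with at least 10% marker transcripts were kept. That filter, used for other genes too, rests on the 4 marker genes of the rule. In Buccal 1 it kept 1877 of 3927 cells but only 315536 of 1183983 transcripts, so the cells it left out held more transcripts each. Of the 7 protease inhibitors, 2 were higher than in buccal mucosa (*Wfdc3* and *Stfa3*) and 3 lower, against 33.1% and 21.9% of all genes tested. The other 2 lower ones, the serpins *Serpinb3b* (-3.93) and *Serpinb2* (-3.48), had -0.23 (adjusted p = 0.806) and -1.90 (adjusted p = 0.0143) over Control skin, and *Serpinb2* lost that call without the cells that hold follicle genes (-0.93, adjusted p = 0.123) and per cell (-0.91, adjusted p = 0.132).

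The epidermal keratins and cornified envelope genes divided. Of 11, 5 were higher in PITX1+ skin (*Krt1*, *Krt77*, *Flg*, *Flg2* and *Ivl*), 5 lower (*Krt78*, *Lor*, *Cnfn*, *Dsc1* and *Mt4*) and 1 did not pass, against 33.1% higher and 21.9% lower of all genes tested, and the list's median of -0.50 turned to 0.54 under library size. *Krt77*, a keratin of the interfollicular epidermis, was at 3249, 11704, 7376 and 1948 scaled CPM in PITX1+ 1 to 4 and at 0, 6.67 and 12.9 at the lowest, median and highest of the buccal sections, which together held 26 transcripts of it. Control skin had 47138, 47646 and 53514, well above both groups, so PITX1+ epithelium was lower than Control by -3.18 (SE 0.68, adjusted p = 0.0169, or -1.86 and 0.118 without the cells that hold follicle genes) and still higher than buccal by 9.64 (SE 0.65, adjusted p = 7.32e-07). *Krt1*, the keratin of the spinous layer, read 3754, 8226, 31011 and 24464 in PITX1+ sections and 19 to 406 (median 265) in buccal mucosa (log2 fold change 6.15, SE 0.79, adjusted p = 3.72e-05). Control skin read 29565, 7354 and 11995, a range that overlapped that of PITX1+ skin. The log2 change from Control to PITX1+ skin was -0.20 (adjusted p = 0.851) with slide as covariate. Its direction differed by slide, at -2.35 on the male slide, with Control 1 alone, and 1.39 on the female slide. This difference between the slides did not pass in the test of the interaction described below.

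Filaggrin and its relative separated in the comparison with Control skin on the female slide only. There the log2 change from Control to PITX1+ skin was 2.13 for *Flg* and -3.84 for *Flg2*. On the male slide, with Control 1 alone, both were lower (-1.10 and -2.73). *Flg* was at 1669, 3386, 12809 and 7874 scaled CPM in PITX1+ sections against 79.3 to 335 in buccal mucosa (log2 fold change 5.35, adjusted p = 1.4e-05) and was 0.80 over Control skin (adjusted p = 0.413). *Flg2* was at 2245, 6638, 3339 and 1234 against 32.9 to 62 in buccal mucosa (6.12, adjusted p = 9.86e-07), and was lower than in Control skin, where it stood at 22678 to 29824 (-3.21, adjusted p = 0.0124), a call lost without the cells that hold follicle genes (-2.22, adjusted p = 0.091). *Ivl*, involucrin, had 5.93 over buccal mucosa and -0.42 over Control skin (adjusted p = 3.21e-05 and 0.26). *Lor*, loricrin, the main protein of the cornified envelope, ran the other way, with 1264, 4882, 13039.6 and 8793 in PITX1+ sections and 23887 to 81238 (median 54904) in buccal mucosa (-2.94, SE 0.61, adjusted p = 0.00165), and it had 0.56 (adjusted p = 0.352) when only cells with at least 10% marker transcripts were kept and -0.71 (adjusted p = 0.248) without cells that hold at least 2 transcripts of the follicle and sebaceous lists. The last of these filters kept 8.24% to 19.5% of epithelial cells in a PITX1+ section and 22.1% to 39.5% in a buccal one. *Cnfn*, cornifelin, had -4.45 (adjusted p = 4.6e-06). *Clca3a2*, a chloride channel accessory protein outside this list, read 483, 1902, 3875 and 2585 in PITX1+ sections, 0 to 40.5 in buccal mucosa and 8180.4 to 10976 in Control skin.

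Most follicle genes and *Shh* were higher in PITX1+ than in buccal epithelium. Of 12 hair follicle genes, 9 were higher than in buccal mucosa and none lower, with a median log2 fold change of 5.35, against 33.1% and 21.9% of all genes tested. With the female PITX1+ sections alone, a fit whose shares over all genes are not given here, 8 were higher and 2 lower. Their summed level overlapped, however, at 42444 and 46850.0 scaled CPM in the male and 12227 and 17487 in the female PITX1+ sections against 8284 to 23885 in buccal sections, while Control sections held 33783 to 56590.0. In buccal sections the members with the most transcripts were *Krt15* (902 to 8542 in a section) and *Dlx3* (540 to 4268), while *Lgr5* held 4 to 23. The buccal sum thus rests on few members. All 4 upper follicle genes (*Krt79*, *Plet1*, *Lrig1* and *Lgr6*) were higher, with a median of 2.16, and so were both hedgehog genes described here, *Shh* and *Ptch1*. In fits of 1 slide, again without such shares, 3 upper follicle genes were higher with the male and 2 with the female sections. *Shh*, the hedgehog ligand, which the hair matrix secretes, was at 1854, 1936, 389.9 and 1833 scaled CPM in PITX1+ 1 to 4. The 6 buccal sections held 6 transcripts of it in all, for 0 to 4.17 scaled CPM, and Control skin read 26.5, 121 and 79.2. Its log2 fold change was 9.62 over buccal mucosa (SE 0.75, adjusted p = 1.14e-06) and 4.01 over Control skin (SE 0.80, adjusted p = 0.0143).

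*Ptch1*, a hedgehog receptor that the pathway itself induces, had the same order of groups. It read 4914, 4220.4, 1928 and 6488 in PITX1+ sections, 1119.8, 1068 and 1185 in Control skin and 221, 301 and 332 at the lowest, median and highest of the buccal sections. It was higher than in buccal mucosa by 3.97 (SE 0.32, adjusted p = 1.19e-06) and higher than in Control skin by 1.87 (SE 0.41, adjusted p = 0.0186), the latter call lost without the cells that hold follicle genes (1.61, adjusted p = 0.091). All 4 PITX1+ sections lay above all Control sections for *Ptch1*.

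Other follicle genes with the widest distance were *Dsg4*, the desmoglein of the hair cortex (7.59), *Lhx2*, a transcription factor of follicle stem cells and hair germ (7.07), *Lrrc15* (7.06), *Lgr5*, a receptor on cycling follicle stem cells (6.73), and *Krtap17-1*, a hair keratin-associated protein (6.56). *Sox9*, a transcription factor of the outer root sheath, had 4.13 and *Krt79*, a keratin of the follicle opening, 5.64. In buccal mucosa the 6 sections together held between 6 and 57 transcripts of *Dsg4*, *Lhx2*, *Lrrc15*, *Lgr5* or *Krtap17-1*. For these 5 genes both male PITX1+ sections stood above both female ones, as for *Lgr5* at 3620.5 and 3228 against 387 and 629.6. *Lgr5* did not pass over Control skin (0.64, adjusted p = 0.0765), nor did *Sox9* (0.40, adjusted p = 0.243) or *Lhx2* (-0.60, adjusted p = 0.298). *Lrig1*, a stem cell marker of the upper follicle, was higher than in buccal mucosa by 1.80 (adjusted p = 2.26e-05) and near Control skin (-0.23, adjusted p = 0.388). *Plet1* had 2.33 (adjusted p = 0.0293), with overlapping sections, and lost the call without PITX1+ 3 (2.03, adjusted p = 0.077) or without Buccal 2 (2.20, adjusted p = 0.0523).

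*Dlx3*, a homeobox gene of hair matrix and differentiating epidermis, was among the 3 follicle genes that did not pass. It read 7260.0 and 8033 in the male PITX1+ sections, 1202 and 2516 in the female ones and 2539 to 5720.5 in buccal mucosa, for a log2 fold change of 0.13 (adjusted p = 0.834), which turned to -0.15 without PITX1+ 1 and to -0.24 without PITX1+ 2. It was called lower with the female sections alone (-1.26, adjusted p = 0.00656) and higher with the male ones alone (1.07, adjusted p = 0.00532). Of the sebaceous genes, *Scd2*, a fatty acid desaturase, was higher (1.17, adjusted p = 0.000699, but 0.45 and 0.163 without cells of the follicle and sebaceous lists), *Cidea* lower, and 2 did not pass. As *Scd2* is on the sebaceous list, that filter removes cells by their *Scd2* transcripts, so the lost call is no test of it. *Krt7*, a simple epithelial keratin, was lower (-3.72, adjusted p = 0.000396), and the other 2 of its list, *Krt8* and *Krt18*, did not pass. *Krt18* held 828 and 443 transcripts in Buccal 4 and 6 and 18 to 57 in the other buccal sections. For *Krt8* these were 734 and 211 against 11 to 79. The study reports salivary gland cells in its buccal samples, and whether such cells met the rule here was not tested.

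Cells with follicle transcripts made up a different part of the epithelial cells in each tissue. At least 1 transcript of any of 10 hair or upper follicle genes (*Krt75*, *Krtap17-1*, *Dsg4*, *Shh*, *Lhx2*, *Lgr5*, *Lrrc15*, *Sox9*, *Krt79* and *Plet1*) was found in 84.2%, 75.9%, 68.7% and 71.6% of epithelial cells in PITX1+ 1 to 4, in 10.4% to 16.2% in buccal sections and in 41.0% to 46.9% in Control sections. No thinning was applied here, and the median of transcripts per cell differed as given below. Without these cells, a comparison added after the data had been seen, 175 genes passed between PITX1+ and buccal epithelium, of which 135 were among the 176 above. *Krt4* then had -7.65, *Sox2* -6.68, *Tgm3* -4.17 and *Dsc2* -3.14 on the log2 scale, *Ptch1* 3.28 and *Krt77* 11.79. Against Control skin, however, the number of calls fell from 104 to 14.

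**Figure D3:**
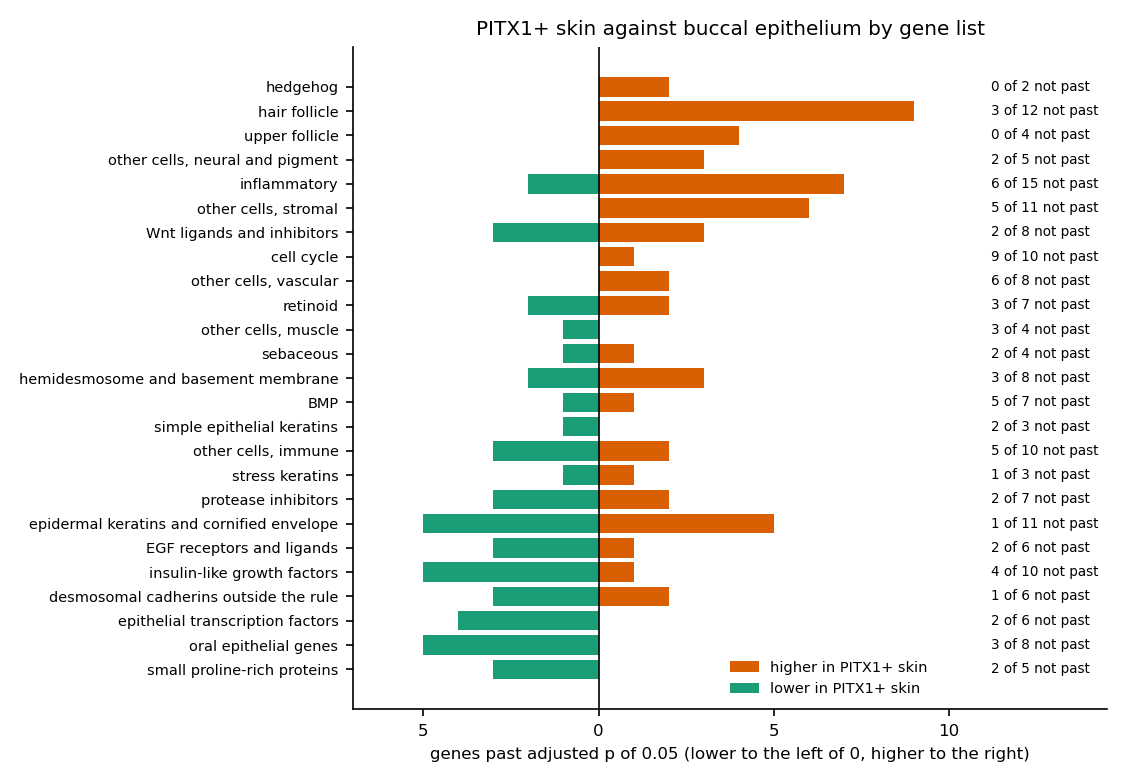
Members of each gene list that were higher (to the right) or lower (to the left) in PITX1+ than in buccal epithelium at an adjusted p under 0.05, as numbers of genes, with the number that did not pass, of the number tested, beside each list. Hair follicle, upper follicle and hedgehog lists have no lower member, and the oral, small proline-rich and transcription factor lists have no higher one.

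Among the epithelial transcription factors, 4 of 6 were lower in PITX1+ than in buccal epithelium and none higher under TMM (median -2.15), where 33.1% of all genes tested were higher and 21.9% lower. Under library size, which has its own calls over all genes as given above, 2 were higher and 3 lower. With the male PITX1+ sections alone 2 of the 6 were higher and 4 lower, and with the female ones alone none and 5. Shares over all genes in those fits of 1 slide are not given here. *Klf4*, a regulator of barrier differentiation, stood at 3018, 3633, 2850.4 and 3080.3 scaled CPM in PITX1+ 1 to 4 and at 9454, 14311 and 21114 at the lowest, median and highest of the buccal sections (log2 fold change -2.23, SE 0.27, adjusted p = 2.93e-05). *Grhl3*, another regulator of barrier genes, had -3.17 (adjusted p = 5.9e-06) and the nuclear receptor *Rora* -2.60 (adjusted p = 0.0002). Without cells that hold at least 2 transcripts of the follicle and sebaceous lists, the calls of *Klf4* (-1.02, adjusted p = 0.0611), *Rora* (-0.38, adjusted p = 0.551) and *Barx2* (-1.56, adjusted p = 0.0746) were lost. This filter kept 8.24% to 19.5% of epithelial cells in a PITX1+ section and 9.75% to 36.3% in a Control one. It kept 22.1% to 39.5% in a buccal one, which lacks follicles, so it did not remove follicle cells alone. *Barx2*, a homeobox gene, was at 8088 and 7651 in the male PITX1+ sections, 1188 and 1009 in the female ones and 10460.4 to 27577 in buccal mucosa (-2.07, SE 0.61, adjusted p = 0.0124), and under library size it had -0.95 (adjusted p = 0.153). *Trp63*, the p63 gene that maintains stratified epithelia, did not pass (0.52, adjusted p = 0.0778), although it did, in the same direction, when any of PITX1+ 3 or 4 or Buccal 1, 4 or 7 was left out (0.65 to 0.85).

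Of 6 desmosomal cadherins outside the rule for cells, *Dsg2* and *Dsg4* were higher and *Dsc1*, *Dsc2* and *Dsg1b* lower, and under library size 2 were higher and 1 lower. *Dsg1b*, an upper-layer desmoglein, had -1.69 (adjusted p = 0.00738), a call lost without the cells that hold follicle genes (-0.99, adjusted p = 0.152) and under library size (-0.66, adjusted p = 0.149). *Dsc1*, the desmocollin of upper layers, had -1.37 (adjusted p = 0.0446) with PITX1+ 3 and 4, at 16571 and 19094, inside the buccal range, and the call was lost when PITX1+ 1 or 2 or any of Buccal 1, 2, 4, 5 and 7 was left out (-1.02 to -1.21). With cells of at least 10% marker transcripts *Dsc1* turned to 1.08 (adjusted p = 0.0478). Of 8 hemidesmosome and basement membrane genes, *Col7a1*, *Lama5* and *Lamc1* were higher and *Itga6* and *Itgb4* lower, near the 33.1% and 21.9% of all genes tested, and under library size 4 were higher and none lower. *Lama5*, a laminin chain of the basement membrane, had 0.98 (adjusted p = 0.0094), and 0.30 (adjusted p = 0.205) without the cells that hold follicle genes. *Itgb4*, the integrin chain of hemidesmosomes, had -1.02 (SE 0.28, adjusted p = 0.00771), -0.60 without PITX1+ 4 (adjusted p = 0.0565), -0.68 without Buccal 4 (adjusted p = 0.0413) and 0.01 under library size.

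The lists of other signalling genes held members called in either direction. Under TMM their shares are to be read against the 33.1% higher and 21.9% lower of all genes tested. Counts under library size are to be read against the calls over all genes under that scaling, given above. Of 8 Wnt ligands and inhibitors, *Wnt6*, *Wnt7a* and *Wif1* were higher and *Wnt4*, *Wnt10a* and *Wnt16* lower, with 5 higher and 1 lower under library size. *Wnt4* was at 3123, 2558, 1819 and 1916 scaled CPM in PITX1+ sections and 8636 to 21134 (median 17259) in buccal mucosa (-2.73, SE 0.33, adjusted p = 2.34e-05), and at 1499, 1417 and 1175 in Control skin. *Wnt7a* had 3.61 (adjusted p = 0.00145), from 44.1 to 261 scaled CPM in PITX1+ sections against 0 to 25 in buccal mucosa. From Control to PITX1+ skin its log2 change was 0.21 on the male slide, with Control 1 alone, and -0.97 on the female slide. Of 6 EGF receptor genes and ligands, *Areg* was higher and *Hbegf*, *Egfr* and *Erbb3* lower, with 3 higher and none lower under library size. Of 10 insulin-like growth factor genes 1 was higher and 5 lower (3 and 1 under library size), of 7 retinoid genes 2 were higher and 2 lower (4 and 1), and of 7 BMP genes 1 was higher and 1 lower (3 and 0). By slide, in a difference that was not tested, 4 BMP genes were higher and 1 lower with the male PITX1+ sections alone (median 0.74) and 1 higher and 5 lower with the female ones alone (median -1.02). For the insulin-like growth factor list the counts were 3 and 3 with the male and 1 and 7 with the female sections. How many of all genes were called in these fits of 1 slide is not given here.

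Inflammatory genes were higher in PITX1+ epithelium for 7 of 15 and lower for 2, with a median of 0.99, where 33.1% and 21.9% of all genes tested were called. Their summed level was lower, from 4113 to 14539 scaled CPM in PITX1+ against 15345 to 31336 in buccal sections, and Control sections held 6816 to 7095. Over Control skin 1 of 15 was higher and 2 lower, where 13.3% of all genes tested were higher and 18.8% lower. *Cxcl1*, a chemokine for neutrophils, was at 1220.1, 108, 884 and 285 scaled CPM in PITX1+ 1 to 4 and at 9.33 to 40.5 in buccal mucosa (4.90, SE 0.68, adjusted p = 7.5e-05). It read 26.5, 117 and 82.5 in Control skin, so that PITX1+ 2 lay within the Control range (2.94, adjusted p = 0.0526). *Ccl27a*, a chemokine of keratinocytes that draws T cells to skin, was at 138 to 267 in PITX1+ sections, 0 to 31.3 in buccal mucosa and 265 to 812 in Control skin (3.66 over buccal mucosa, adjusted p = 0.00037). The lower members were *Il1f6* and *Il1f8*, given above. Of 10 cell cycle genes only *Uhrf1* passed, under TMM, and 8 were higher under library size, a scaling with more genes called higher in all, as given above. With the male PITX1+ sections alone 6 were higher and none lower, and with the female ones alone none was higher and 1 lower. Shares over all genes in these fits of 1 slide are not given here. *Top2a*, a topoisomerase of dividing cells, had 0.59 (adjusted p = 0.125), and 0.79 and 0.92 with adjusted p = 0.0361 and 0.038 without PITX1+ 3 and without Buccal 4.

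Transcripts of other cell types were also present within the outlines of epithelial cells. Stromal genes were higher in PITX1+ epithelium for 6 of 11 and lower for none, led by *Col1a1*, a collagen of fibroblasts (3.11, adjusted p = 1.19e-06). These counts were 8 and 0 for the male and 3 and 2 for the female PITX1+ sections alone, fits whose shares over all genes are not given here. The summed level of the stromal list ran from 10834 to 21869 scaled CPM in PITX1+ sections, from 4650 to 10184 in buccal and from 15783 to 24010 in Control sections. Vascular genes were higher for 2 of 8 and lower for none, genes of nerve and pigment cells higher for 3 of 5 and lower for none, immune genes higher for 2 and lower for 3 of 10, and muscle genes lower for 1 of 4, where 33.1% of all genes tested were higher and 21.9% lower. Their part in the results above was not tested.

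The cells themselves differed in depth and in the size of the nucleus. The median number of transcripts per epithelial cell was 95.3 ± 10.0 (SD, n = 4) in PITX1+ and 164 ± 28.1 (SD, n = 6) in buccal sections, with a two-sided exact permutation p of 0.00952, the smallest that 4 against 6 sections allow (adjusted p = 0.0286 over 3 measures). It was 50.3 ± 14.4 (SD, n = 3) in Control sections. The median nucleus area was 30.8 ± 7.84 µm² (SD, n = 4) in PITX1+ and 21.7 ± 2.39 µm² (SD, n = 6) in buccal sections (exact permutation p = 0.0286, adjusted p = 0.0429). Only the female PITX1+ sections, at 36.3 and 38.7 µm², stood clear of buccal and Control sections, and the male ones were at 24.6 and 23.5 µm². Without PITX1+ 3 or without PITX1+ 4 the exact permutation p rose to 0.0714. The median cell area was 66.3 ± 15.5 µm² (SD, n = 4) and 73.9 ± 7.74 µm² (SD, n = 6), which did not pass (exact permutation p = 0.324).

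**Figure D4:**
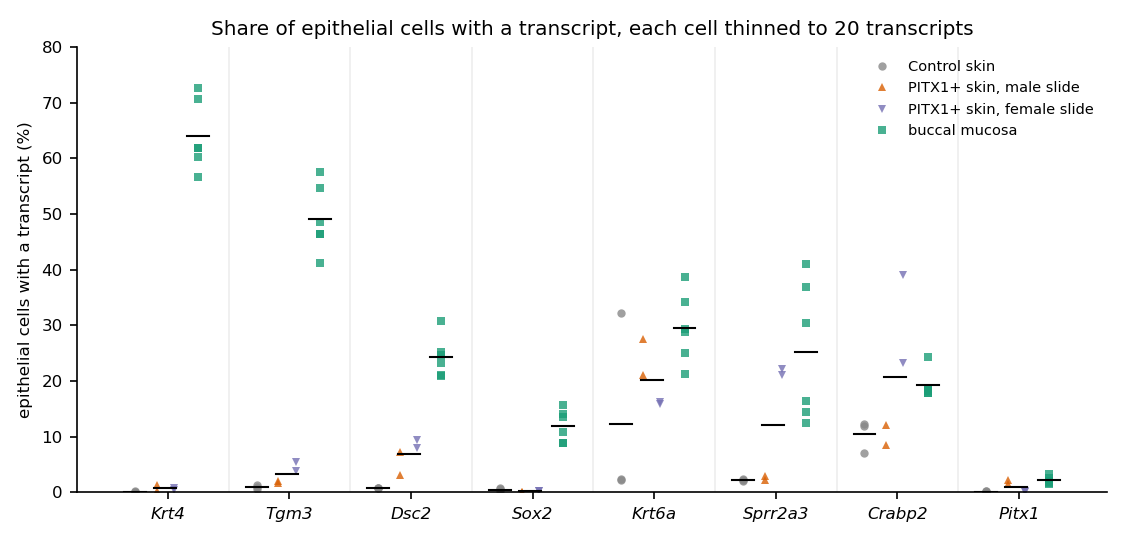
Percent of epithelial cells with at least 1 transcript of each oral gene after each cell was thinned to 20 transcripts, on a linear axis from 0, with a point for each section and a bar for the group mean. *Krt4* is found in 56.6% to 72.7% of buccal epithelial cells and in at most 1.31% of those of any PITX1+ section.

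Shares of cells were compared after each cell had been thinned to 20 transcripts, which left out 68 to 258 cells of a PITX1+ section and 7 to 33 of a buccal section. A *Krt4* transcript was found in 0.726% ± 0.442 (SD, n = 4) of PITX1+ epithelial cells, with 1.31%, 0.284%, 0.509% and 0.804% in PITX1+ 1 to 4, and in 64.0% ± 6.28 (SD, n = 6) of buccal ones. Control skin had 0.127%. After thinning, a share falls with the mean level as well as with the number of cells that express the gene, so it does not tell these apart, and without thinning 1.31% to 5.26% of cells in a PITX1+ section held a *Krt4* transcript. In cells with no marker transcript, read as background, the share was 0.0957% in PITX1+ skin and 6.51% in buccal mucosa, where their median depth before thinning ran from 52 to 95 transcripts, against 130 to 212 in epithelial cells. In PITX1+ sections those medians were 36 to 79 and 87 to 110. In each PITX1+ section the *Krt4* share of epithelial cells stood above that of marker-free cells, which was 0% in PITX1+ 2 and at most 0.225%, in PITX1+ 3.

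*Tgm3* was found in 3.24% ± 1.80 (SD, n = 4) of PITX1+ and 49.1% ± 5.99 (SD, n = 6) of buccal epithelial cells, *Dsc2* in 6.96% ± 2.67 and 24.3% ± 3.65, and *Sox2* in 0.216% ± 0.138 and 12.0% ± 2.87. For *Krt4* and these 3 genes the groups did not overlap (exact permutation p = 0.00952, adjusted p = 0.019 over the 8 genes). The *Sox2* share of PITX1+ epithelial cells was no higher than the 0.406% in marker-free cells and counts as background. In Control skin the shares were 0.228%, 0.708% and 0.576% in epithelial cells and 0.682%, 0.652% and 0.407% in marker-free cells. In buccal mucosa marker-free cells held the transcript in 4.59% on average, a mean that rests on Buccal 6. That section had 25%, against 15.6% of its epithelial cells, and the other buccal sections used had 0.209% to 0.693%. *Krt6a* was found in 20.2% ± 5.52 (SD, n = 4) and 29.6% ± 6.19 (SD, n = 6), which did not pass after adjustment (exact permutation p = 0.0381, adjusted p = 0.061). Shares of *Pitx1* (0.994% and 2.17%), *Crabp2* (20.8% and 19.3%) and *Sprr2a3* (12.1% and 25.3%) overlapped between the groups. For *Pitx1* the PITX1+ sections held 2.20%, 1.53%, 0.0668% and 0.177%, of which PITX1+ 3 lay below the 0.134% of its marker-free cells, and the difference from buccal mucosa went from -1.18 to -1.58 percentage points without PITX1+ 1 (exact permutation p = 0.0952 and 0.0238). Control 1 to 3 held 0.0569%, 0.218% and 0.180%, so by this share PITX1+ 3 and 4 both lay below the Control sections of their slide. *Crabp2* ran from 8.58% in PITX1+ 2 to 39.1% in PITX1+ 3, and without PITX1+ 3 its difference turned from 1.51 to -4.61 percentage points.

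**Figure D5:**
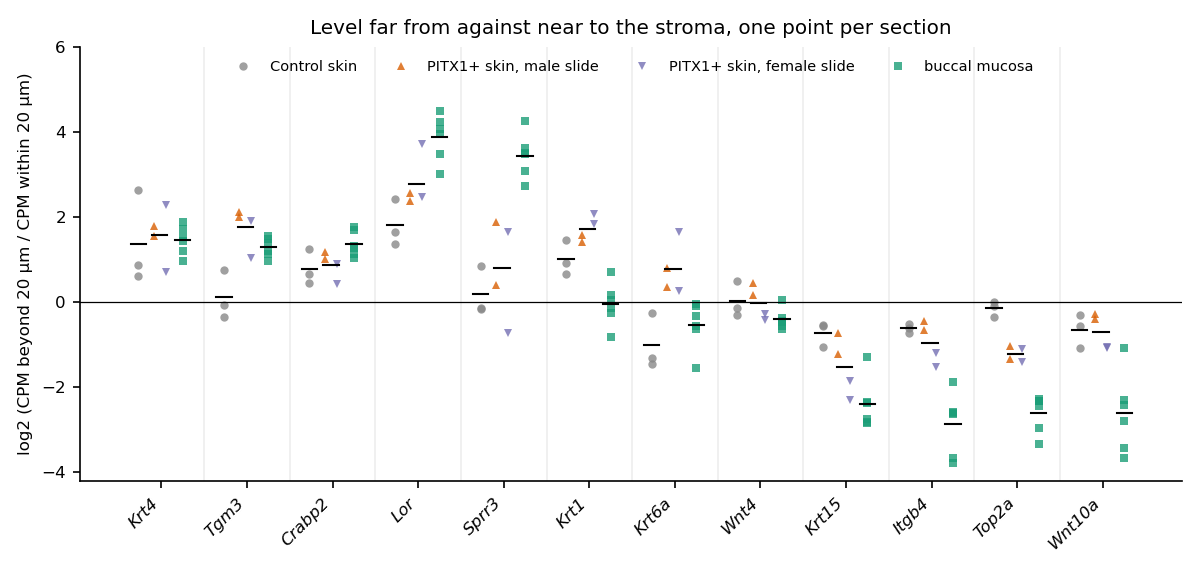
Log2 ratio of a gene's level in epithelial cells farther than 20 µm from the nearest stromal cell over its level in nearer ones, with a point for each section and a bar for the group mean, and 0 as the line of no difference. *Top2a*, *Itgb4* and *Wnt10a* are lower in far cells of every PITX1+ and buccal section, with the lower means in buccal mucosa, and *Krt1* and *Krt6a* are higher in far cells of all 4 PITX1+ sections.

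Levels by distance to the stroma were compared as the log2 ratio of epithelial cells farther than 20 µm from the nearest stromal cell over nearer ones, with a pseudocount of 10 CPM. This distance does not give the layer of a cell and may differ in meaning between the tissues. Follicle transcripts were held by 68.7% to 84.2% of epithelial cells in PITX1+ sections and by 10.4% to 16.2% in buccal ones. A stromal cell was one with at least 3 transcripts of the stromal list and no marker transcript. *Krt4* was higher in the far cells of both tissues, by 1.59 ± 0.66 (SD, n = 4) in PITX1+ and 1.46 ± 0.33 (SD, n = 6) in buccal sections. In Control sections its mean ratio was 1.38. The difference between PITX1+ and buccal sections was 0.13 (exact permutation p = 0.695), and it turned to -0.11 without PITX1+ 4 and to -0.18 with a pseudocount of 100 CPM. *Sprr3* was higher in far cells by 3.45 ± 0.52 (SD, n = 6) in buccal sections and by 0.80 ± 1.21 (SD, n = 4) in PITX1+ ones, and *Lor* by 3.87 ± 0.53 and 2.78 ± 0.62. The *Sprr3* ratios did not overlap between the tissues (exact permutation p = 0.00952, adjusted p = 0.019). *Lor* passed (exact permutation p = 0.0286, adjusted p = 0.049) but not without PITX1+ 1, 2 or 4.

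*Krt1* was higher in far cells in PITX1+ sections (1.72 ± 0.28, SD, n = 4) and had no common direction in buccal ones (-0.05 ± 0.50, SD, n = 6), where its level was low. *Krt6a* was higher in far cells in 4 of 4 PITX1+ sections (0.77 ± 0.64, SD) and in 0 of 6 buccal sections (-0.53 ± 0.55, SD). Genes of basal and dividing cells were lower in far cells in all 10 sections, and more so in buccal mucosa, as for *Itgb4* (-0.96 ± 0.49 and -2.86 ± 0.73, SD), *Top2a* (-1.22 ± 0.18 and -2.61 ± 0.44, SD) and *Wnt10a*, a Wnt ligand (-0.70 ± 0.42 and -2.62 ± 0.93, SD). Each of these 5 differences had an exact permutation p of 0.00952 (adjusted p = 0.019 over 12 genes). *Tgm3*, *Crabp2*, *Wnt4* and *Krt15* did not pass. Without cells that hold at least 2 transcripts of the hair follicle, upper follicle and sebaceous lists, the differences of *Krt6a*, *Krt1*, *Wnt10a* and *Itgb4* no longer passed. That filter left out most epithelial cells of every section, buccal ones included, as given above. Epithelial cells lay nearer to stromal cells in PITX1+ skin, at a median of 17.6 to 19.7 µm, than in buccal mucosa, at 21.6 to 28.3 µm.

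Against Control skin, PITX1+ epithelium differed in 104 of 324 genes tested (32.1%), 43 higher (13.3%) and 61 lower (18.8%), a balance that turned to 101 higher and 7 lower per cell, and buccal epithelium differed in 193 of 317 (60.9%), 93 higher (29.3%) and 100 lower (31.5%). Sections did not overlap for 24.1% and 50.2% of genes. These comparisons share sections with each other and with the one above, so their values are only set side by side. Of the 8 oral genes, 3 were higher in PITX1+ than in Control skin (*Krt4*, *Dsc2* and *Tgm3*) and *Sox2*, with shares near background in both, was called lower, while 7 were higher in buccal mucosa than in Control skin. Over Control skin 6 of the 8 were higher and none lower in PITX1+ skin per cell, and 5 and 1 with DESeq2. Without the cells that hold follicle genes *Dsc2* alone of the 7 oral genes then tested passed over Control skin. The summed level of the 8 genes ran from 6702 to 22573 scaled CPM in Control sections, from 15755 to 63672 in PITX1+ sections and from 180765 to 535654 in buccal sections. *Shh* (4.01 and -5.26) and *Ptch1* (1.87 and -1.94) were higher in PITX1+ and lower in buccal than in Control skin. *Krt77* and *Flg2* were lower than in Control skin in both (-3.18 and -12.57, and -3.21 and -9.01). Of 10 immune genes 5 were lower in PITX1+ than in Control skin and none higher, calls that were lost without the cells that hold follicle genes and per cell. Their summed level was 1790.3 to 3393 scaled CPM in PITX1+ and 5837 to 6458 in Control sections, and its part in this comparison was not tested. The count of 104 depends on the sections, with 26 calls without PITX1+ 4, 36 without Control 3, 37 without Control 2 and 66 without PITX1+ 3.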

How the data were processed

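The authors cut 5 µm formalin-fixed sections onto Xenium slides and deposited the instrument's output for each slide, with no normalization. Deposited cells tables give, for each cell, counts of its transcripts and of its control calls. In the deposited transcripts table each call has a quality score, and the other quantities the authors deposited are positions in µm, cell and nucleus areas in µm² and a mark for lying over the nucleus. Software version and segmentation settings are not given in the sources used here. Cell and nucleus outlines and the slide with wounds were not used.

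Calls of the 328 genes were counted in each cell if their quality score reached 20, and equalled the deposited count in 100% of cells. Of them, 98.1% to 98.6% lay in cells on the 3 slides used, and control calls numbered 0.0375% to 0.0814% as many. Cells chained within 100 µm formed a section if they numbered at least 2000. Counts of the epithelial cells were summed per section and compared by the quasi-likelihood test of edgeR 4.0.16 (R 4.3.3), after TMM scaling and filterByExpr, with Benjamini-Hochberg adjustment and a threshold of 0.05, and for PITX1+ against Control skin with slide, which is also sex, as covariate. The 4 marker genes stayed in the library size and out of the tests. Medians, shares and distance ratios of sections were compared by two-sided exact permutation tests (Python 3.11.15, scipy 1.17.1), Benjamini-Hochberg adjusted within each family. The scripts were tested on simulated data. No cells were removed as doublets, and outlines can take up transcripts of neighbours.

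Genes named are the 8 oral genes, the 8 genes furthest apart in either direction that passed without overlap of sections, and the 3 members with the highest mean CPM of every other list. *Krt1*, *Flg*, *Flg2*, *Ivl*, *Cnfn*, *Grhl3*, *Dsg1b*, *Sprr1b*, *Wnt7a*, *Cxcl1*, *Ccl27a* and *Krtap17-1* were added after their values had been seen, as further members of their lists. Not all members of these lists are given with values. Results of 1 gene that the rule names are not reported here. Members, lists and tests were chosen with earlier results of these data known. Alternatives were library size, transcripts per cell, DESeq2 1.42.0, other filters on genes, transcripts and cells, each slide or section left out, and other limits, pseudocounts and thinning.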

Additional observations from a re-analysis of the deposited data

Results flagged for a closer look

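In 162 groups of 4 or 6 sections screened for 1 section far from the others by Dixon's criterion, 10 were marked, where chance marks about 1 in 20. PITX1+ 3 had the lowest *Shh* level of the PITX1+ sections, 389.9 scaled CPM. PITX1+ 2 had the highest *Rora* level of them, 1888 scaled CPM. Single buccal sections stood above the other 5 for *Clca3a2* (40.5 scaled CPM), *Lrig1* (1280.4), *Flg* (335) and *Ivl* (112). The *Crabp2* share was 24.4% in Buccal 2, above the other buccal sections. Among the far over near log2 ratios, 3.71 for *Lor* in PITX1+ 3, -1.30 for *Krt15* in Buccal 6 and 0.0484 for *Wnt4* in 1 buccal section were highest in their groups.

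For 2 oral genes the change from Control to PITX1+ skin differed between the slides in a test of the interaction (edgeR's quasi-likelihood test), in which 8 of 324 genes tested passed an adjusted p of 0.05. The change of *Krt6a* on the male slide minus that on the female slide was -4.63 on the log2 scale (adjusted p = 0.0027), with -0.55 on the male and 4.08 on the female slide. For *Sprr2a3* it was -5.09 (adjusted p = 0.0027), with -0.59 and 4.52. *Pitx1* itself did not pass and had 5.16, with 5.29 on the male and 0.0817 on the female slide. The male slide held 1 Control section, whose spread is assumed to be that of the other groups and in which *Krt6a* stood far above the female Control sections, and slide and sex cannot be told apart.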

How the results depend on the processing

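Between PITX1+ and buccal epithelium the number of genes past 0.05 was 129 to 203 under other settings (164 to 181 with 1 section left out, 190 with DESeq2). Of the 58 genes given with values, 52 passed, 35 of them in the same direction under each of the 26 alternatives that gave them a value, and 3 (*Dsc1*, *Itgb4*, *Plet1*) lost the call when 1 of 10 sections was left out. Of the share and distance results, 84 of 96 and 137 of 168 kept direction and side of the threshold. The cause of the changes below was not tested.

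Between PITX1+ and Control skin the count fell from 104 to 11 without cells that hold at least 2 transcripts of the follicle and sebaceous lists, to 14 without cells that hold follicle genes and to 14 without the covariate, and ran from 26 to 113 with 1 section left out. Between buccal and Control epithelium it went from 193 to 111 without the first of these sets of cells, and ran from 153 to 217 with 1 section left out. Per cell in place of TMM, PITX1+ against Control had 101 higher and 7 lower, and buccal against Control 126 and 62 (45 and 178 under library size). As a mean over cells, cell area differed by -26.1 µm² (exact permutation p = 0.0286). The nucleus area difference ran from 6.44 to 11.5 µm² with 1 section left out.

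Directions turned as follows on the log2 scale. *Crabp2* had 0.50 under library size, 0.13 over the nucleus, 0.39 with cells thinned to 10 transcripts and 0.18 on the female slide, and *Itgb4* 0.0126 under library size. Keeping cells with at least 10% marker transcripts gave *Sprr2a3* 0.21, *Sprr1a* 0.0118, *Lor* 0.56, *Dsc1* 1.08 (adjusted p = 0.0478), *Lama5* -0.00793, *Slpi* 0.20, *Il1f8* 0.54 and *Top2a* -0.0335. *Dlx3* had -1.01 and -0.71 without the cells of the follicle and sebaceous lists and without follicle genes, -1.26 on the female slide, -0.15 without PITX1+ 1 and -0.24 without PITX1+ 2 (-0.24 to 0.60 with 1 section left out). As *Dlx3* is on the hair follicle list, the first of these filters removes cells by their *Dlx3* transcripts. The *Crabp2* share differed by -4.61 percentage points without PITX1+ 3 (-4.61 to 5.57 with 1 section left out) and by -18.3 without thinning. For the distance ratios, the cells without follicle and sebaceous transcripts gave *Krt4* -0.66, *Tgm3* -0.43 and *Wnt4* -0.21, *Krt4* had -0.18 with a pseudocount of 100 CPM and -0.11 without PITX1+ 4 (-0.11 to 0.42 with 1 section left out), and *Crabp2* 0.0528 at a limit of 30 µm.

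No paired analysis was possible because the labels number no sections, so PITX1+ and buccal sections share no replicate number. Buccal sections with at least 20 epithelial cells are the same 6. Depth limits Control skin most, and genes with few buccal transcripts there.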
